A study of Mus musculus with 2 samples.

Results

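The 8 genes described here are activation-induced genes of T cells: the nuclear receptors Nr4a1, Nr4a2 and Nr4a3, the zinc finger factors Egr1, Egr2 and Egr3, the EGR corepressor Nab2 and the surface lectin Cd69. Their open chromatin was taken from ATAC-seq, which marks accessible DNA through adapter insertion by the Tn5 transposase, in regulatory T (Treg) cells. The members were the peaks to which the authors had assigned one of these gene symbols. They numbered 17 of 19680 peaks in the TKT cKO Treg library and 23 of 34440 peaks in the WT Treg library, and all 8 genes had peaks in both. The TKT cKO Treg library came from female C57BL/6 mice with the genotype Foxp3cre/+ TKTfl/fl, in which transketolase (Tkt) is deleted in cells expressing the Foxp3-Cre allele. The WT Treg library came from Foxp3cre/+ females of the same strain labelled wild type, so both groups carry 1 Foxp3-Cre allele. Both used CD4+CD25+YFP+ cells sorted from spleen and lymph node at 7 weeks of age, with 50000 cells per reaction and no treatment. The labels call the mice chimeric and do not give the number of animals behind a library. There was 1 library per genotype, so the spread between replicates is unknown and no test was made.

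The NR4A receptors are orphan nuclear receptors that T cells switch on within a short time of antigen receptor signalling. In Treg cells they help to keep Foxp3 expression and lineage identity. The EGR factors are induced downstream of the MAP kinase and calcium pathways, and Egr2 and Egr3 also restrain T cell activation. Nab2 binds EGR proteins and represses their targets, and Cd69 holds activated lymphocytes in tissue by antagonising the sphingosine 1-phosphate receptor. Several of these genes are used as readouts of recent T cell receptor signals.

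Each peak carried a score given by the authors, whose meaning the file headers do not state. Sequencing depth was unknown. Scores of both lists are printed below, but each was read only as the place of a peak within its own list. A lower score in one list than in the other is not read as a loss. The median score was 16.6 in the cKO list and 28.1 in the WT list. A missing cKO peak means that none was called at that depth, not that the region was closed. In a pool of cells, fewer cells with an open region and less opening per cell cannot be told apart. Treg genes had peaks in both lists, with 2 cKO and 2 WT peaks at Foxp3, 4 cKO and 6 WT peaks at Il2ra and 3 cKO and 4 WT peaks at Ctla4. Marker genes of other lineages, given at the end, had peaks too, so these counts do not establish the sorted identity. Tkt itself had 1 peak in cKO and 1 in WT, which does not check its deletion. No peak of either library was assigned to Cd3g or Tnfrsf18.

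The start sites of the 8 genes carried peaks in both genotypes. All 6 peaks called in WT alone scored at or below the WT median (100%, 61.0 to 100), as did 86.3% of all WT peaks without a cKO partner. A peak spanning the transcription start site (TSS) was present in both libraries for 8 of 8 genes (Wilson 95% interval 67.6 to 100%), against 44.9% of the 19459 genes with a peak in either list. In the gene lists described below, the same held for 25 of 34 other activation-induced genes, 17 of 22 upstream regulators and 11 of 21 partners and targets. Of the 17 cKO peaks, 17 overlapped a WT peak by at least 1 bp, close to the 97.6% of the whole cKO list. Of the 23 WT peaks, 17 had a partner in cKO (73.9%, 53.5 to 87.5), and the 56.1% found over all WT peaks lay inside this interval. Intervals cover counting error only. The 6 WT peaks without a cKO partner belonged to Nr4a1, Nr4a2, Nr4a3, Egr2 (1 each) and Cd69 (2), while Egr1, Egr3 and Nab2 shared every peak.

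The shared and unshared peaks were also compared by position and strength. At promoters (within 3 kb of a TSS in the authors' classes) 10 of 11 WT peaks were shared (90.9%, 62.3 to 98.4), against 74.3% of all WT promoter peaks. Away from promoters 7 of 12 were shared (58.3%, 32.0 to 80.7), against 41.4% of all such WT peaks. All 17 WT peaks that scored above the WT median were shared, where the list as a whole had 88%. Of the 6 at or below the median, 0 were shared (Wilson upper limit 39.0%), where the list had 24.1%. By 3 counts of the total, a count of 0 among 6 allows up to 50%. The weakest shared WT peak scored 45.5 and the strongest unshared one 22.5, so the 2 kinds did not overlap in score. Each of these background shares lay inside the interval of the members, and the split by median score was made after the values were seen.

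**Figure D1:**
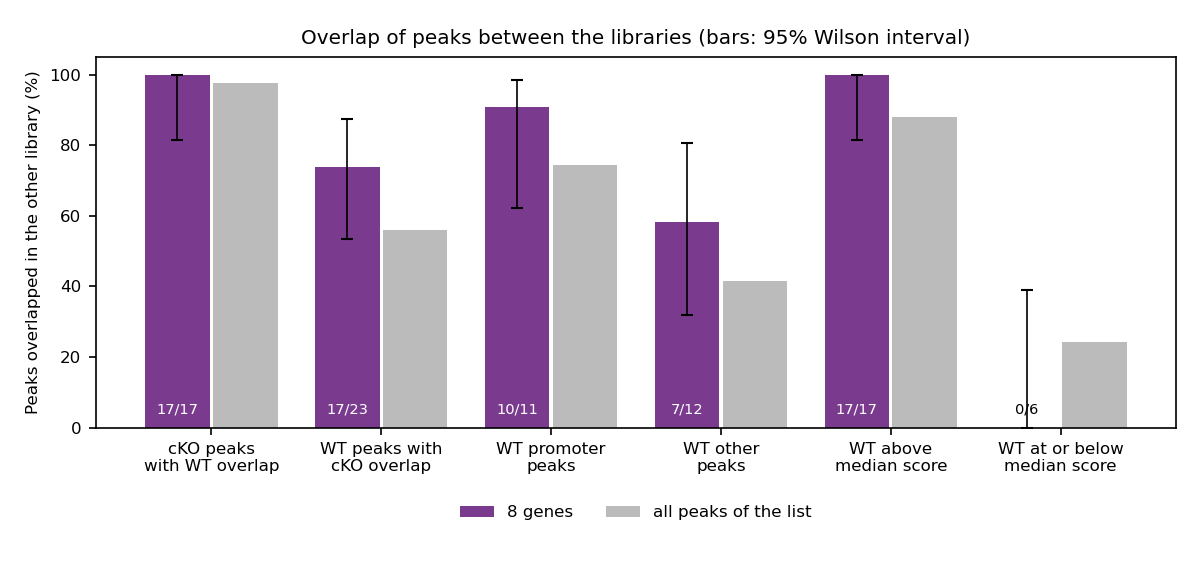
Bars give the percentage of peaks overlapped by at least 1 bp in the other library, for the peaks of the 8 genes (purple, left of each pair) and for all peaks of the list (grey), with Wilson 95% intervals on the purple bars and counts at their base. The purple bars for WT peaks stand at 73.9% for all classes, at 90.9% for promoters and at 58.3% elsewhere, and split into 100% and 0% at the WT median score.

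In total length, peaks of these genes covered 30830 bp in the cKO list and 39320 bp in the WT list, so that the cKO length was 78.4% of the WT length, against 57.5% for the lists as a whole (20.7 Mb in cKO and 36.0 Mb in WT). In number the cKO peaks were 73.9% of the WT peaks, against 57.1% for the lists. Neither ratio carries an interval. The WT peaks of the 8 genes stood above a median of 73.2% of the WT list, in which stronger peaks were shared more often. Whether score accounts for the higher ratios was not tested. Within the shared pairs, 15 of 17 cKO peaks were narrower than their WT partner, beside 84.7% of all shared cKO peaks, and 11 of 17 lay wholly inside it, beside 65.4% of all. The common bases made up 67.9 to 95.8% of the WT peak (median 90.9%, against a median of 81.0% over all pairs). Peak centres differed by 8.5 to 267.0 bp, with a median of 61.5 bp against 75 bp over all pairs. Both partners of each pair carried the same annotation class and gene, so no shared region changed its gene or class between the lists.

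**Figure D2:**
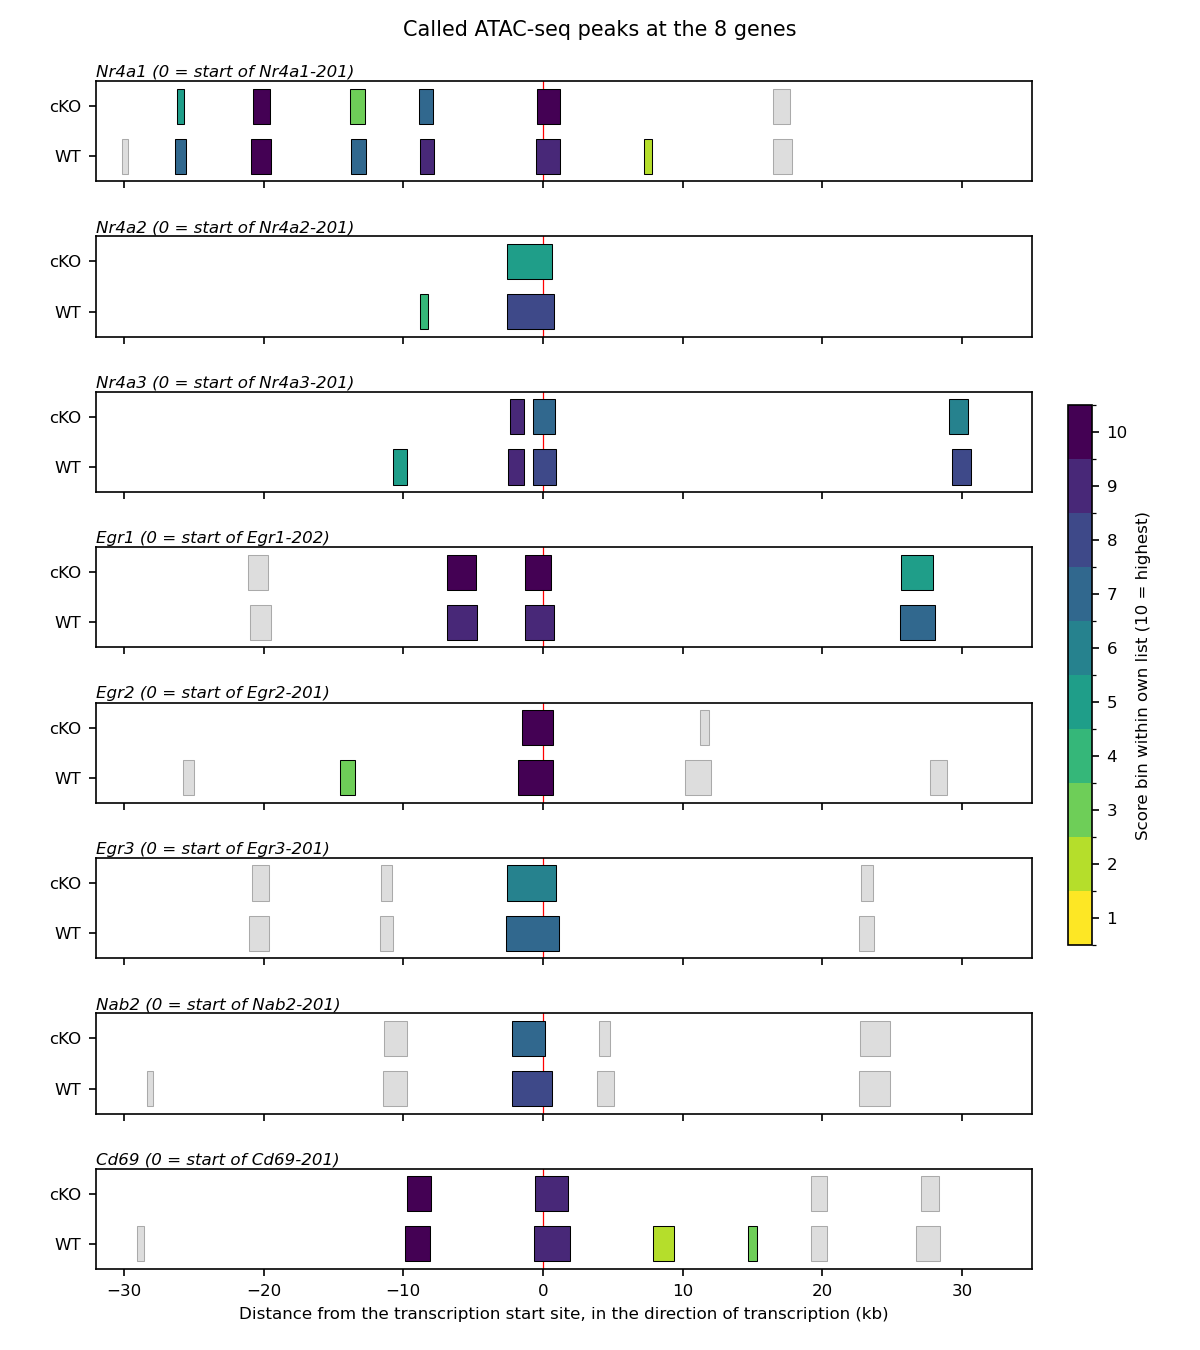
Called peaks at the 8 genes by distance from a transcription start site (red line, in kb, direction of transcription to the right), with the cKO library above the WT library in each panel. Coloured boxes are peaks assigned to the gene, shaded by score bin within their own list (10 is the highest), and grey boxes are peaks assigned to other genes. Every gene has a coloured box over the red line in both rows, and the 6 coloured boxes found in the WT row alone are in bins 2 to 5.

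The peaks over the start sites were wide. In the cKO library they measured 1600 bp at Nr4a1, 3207 bp at Nr4a2, 1575 bp at Nr4a3, 1809 bp at Egr1, 2274 bp at Egr2, 3515 bp at Egr3, 2312 bp at Nab2 and 2382 bp at Cd69. In the WT library the same regions measured 1677, 3321, 1662, 2111, 2501, 3812, 2882 and 2637 bp in that order of genes. A width of 2000 bp, chosen after the values were seen, was reached by 5 of 8 cKO peaks (62.5%, 30.6 to 86.3) and 6 of 8 WT peaks (75%, 40.9 to 92.9). Over all peaks that span a TSS, 4.85% in cKO and 8.14% in WT were as wide, and among WT ones in score bins 7 to 10, where all 8 WT peaks lay, 8.49% were. The median width over these 8 start sites was 2293 bp in cKO and 2569 bp in WT, against 1091 bp and 1232 bp over all start sites in cKO and in WT. The widest of them, at Egr3, exceeded 99.9% of the peaks of its list in either library. A minimum of 1500 bp was also chosen after the values were seen. It lies below the narrowest of these peaks (1575 bp in cKO and 1662 bp in WT), so all 8 reached it in each library by construction. Over all peaks that span a TSS, 17.0% in cKO and 26.2% in WT reached it.

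**Figure D3:**
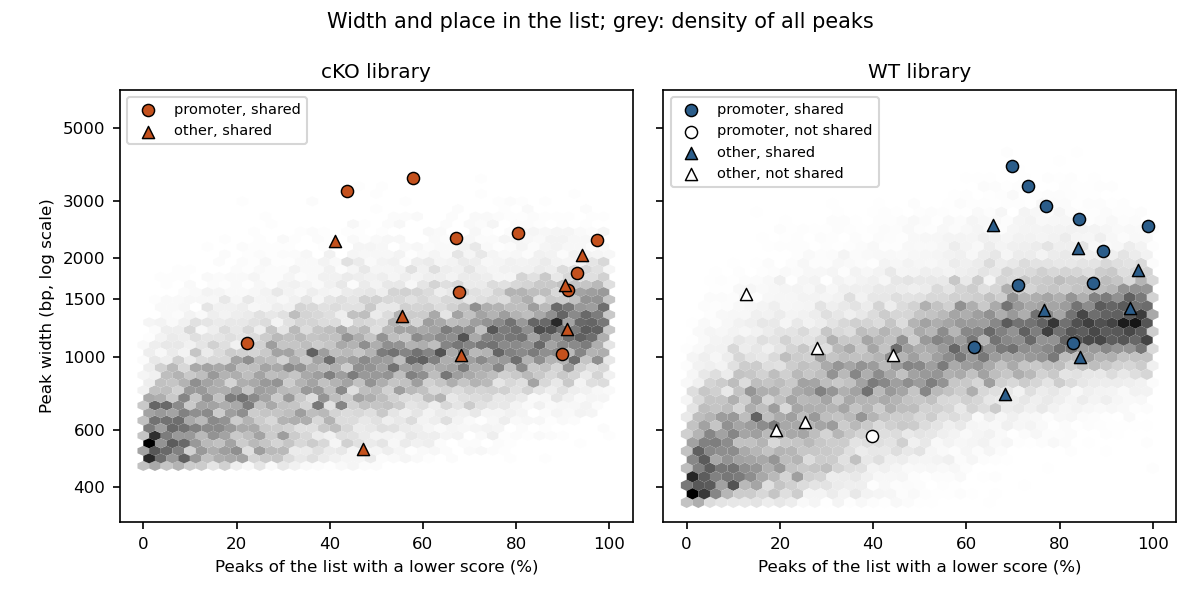
Width of each peak (bp, log scale) against the percentage of peaks of the same list with a lower score, in the cKO library (left) and the WT library (right). Circles are promoter peaks and triangles other peaks of the 8 genes, filled where the other library has an overlapping peak, and the grey shading shows the density of all peaks. In the WT panel the 8 peaks over a start site are wider than at least 89.8% of the list, and the other circles lie lower. The open symbols lie at the lower scores of the WT panel.

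To show the sequence at the start sites, promoter windows of 300 bases (250 before and 50 after the gene start) were taken from RefSeq for 5 members. Egr1 was left out when the windows were selected and was not searched, and Egr3 and Cd69 had no window. The windows are printed here in GRCm38.p6, the same assembly as the mm10 of the peaks, 5′ to 3′ on the strand of the gene. Capitals mark the short cyclic AMP response element TGACG in either orientation (CGTCA when read on the other strand), an EGR site GCGGGGGCG (here on the other strand) and a CArG box, the motif of serum response factor.
Nr4a1 (chr15:101266596-101266895, + strand): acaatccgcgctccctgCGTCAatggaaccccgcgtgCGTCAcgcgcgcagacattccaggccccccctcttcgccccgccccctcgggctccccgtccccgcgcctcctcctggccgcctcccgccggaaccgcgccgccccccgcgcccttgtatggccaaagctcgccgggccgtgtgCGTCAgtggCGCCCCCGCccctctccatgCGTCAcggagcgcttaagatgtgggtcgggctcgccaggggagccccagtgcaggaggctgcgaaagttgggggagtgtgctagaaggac
Nr4a2 (chr2:57123954-57124253, - strand): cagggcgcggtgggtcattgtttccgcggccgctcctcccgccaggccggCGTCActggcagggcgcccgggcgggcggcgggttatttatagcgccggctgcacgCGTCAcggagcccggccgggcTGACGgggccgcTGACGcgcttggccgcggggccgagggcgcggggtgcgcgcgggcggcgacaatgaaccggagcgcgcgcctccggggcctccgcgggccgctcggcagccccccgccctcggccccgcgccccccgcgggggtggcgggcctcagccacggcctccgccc
Nr4a3 (chr4:48045055-48045354, + strand): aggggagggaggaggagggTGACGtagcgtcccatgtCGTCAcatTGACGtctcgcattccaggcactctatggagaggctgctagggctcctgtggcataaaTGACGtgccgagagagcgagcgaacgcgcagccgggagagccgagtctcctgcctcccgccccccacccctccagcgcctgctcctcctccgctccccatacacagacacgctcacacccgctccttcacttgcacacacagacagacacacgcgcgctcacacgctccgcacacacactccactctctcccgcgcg
Egr2 (chr10:67537619-67537918, + strand): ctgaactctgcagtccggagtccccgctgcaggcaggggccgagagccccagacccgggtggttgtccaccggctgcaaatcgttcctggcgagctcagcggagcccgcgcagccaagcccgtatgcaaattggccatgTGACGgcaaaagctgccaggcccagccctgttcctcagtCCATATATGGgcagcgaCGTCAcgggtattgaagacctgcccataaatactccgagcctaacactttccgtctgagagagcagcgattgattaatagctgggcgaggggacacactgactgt
Nab2 (chr10:127666654-127666953, - strand): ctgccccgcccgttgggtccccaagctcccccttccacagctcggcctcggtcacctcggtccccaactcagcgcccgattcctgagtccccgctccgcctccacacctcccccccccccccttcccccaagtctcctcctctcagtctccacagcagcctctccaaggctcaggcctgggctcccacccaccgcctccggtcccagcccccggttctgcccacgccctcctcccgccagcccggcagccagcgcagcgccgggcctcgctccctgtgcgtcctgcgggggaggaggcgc

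The windows of Nr4a1, Nr4a3, Egr2 and Nab2 lay inside a called peak over all 300 bases in both libraries. That of Nr4a2, at its upstream start Nr4a2-203 and not at the start of Nr4a2-201 that carried the broad peak, had 0 bases inside a peak in either. The gene starts of the Nab2 and Nr4a3 windows lay 7 and 152 bases from the start that the authors used, and those of the other windows matched one. TGACG was found in 4 of the 5 windows, against 20.8% of all 32851 promoter windows. TGACG contains a CpG, and the 20.8% was not matched for the CpG content of the windows, which is given below. There were 4 TGACG matches each in Nr4a1, Nr4a2 and Nr4a3, 2 in Egr2 and none in Nab2. In Nr4a1 the matches began at -233, -213, -69 and -40 from the gene start. The CArG box stood in 1 window, Egr2, at -72, against 1.63% of all windows, with TGACG matches at -111 and -55 on either side of it. GCGGGGGCG stood in 1 window, Nr4a1, at -60, against 2.91%. This motif is all G and C and also contains CpG, and the 2.91% was likewise not matched for the composition of the windows.

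Other motifs were searched on both strands in the same windows. The NFAT core GGAAA was found in Nr4a2 and Egr2, against 61.3% of all windows, and the TATA box TATAAA in Nr4a2, against 13.6%. The NR4A site NBRE (AAAGGTCA), the EGR site GCGTGGGCG, the full cyclic AMP response element TGACGTCA (which contains TGACG), the AP-1 site TGANTCA and the E-box CACGTG had 0 matches in the 5 windows. Over all windows these stood at 1.51%, 0.612%, 1.79%, 7.81% and 7.15%. The windows were rich in G and C, at 72.3% in Nr4a1, 81.7% in Nr4a2, 64.7% in Nr4a3, 60.0% in Egr2 and 74.0% in Nab2, against a median of 52.7% over all windows. They held 19 (Egr2) to 52 (Nr4a2) CpG, against a median of 7. A match describes letters and shows no binding.

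Nr4a1, which encodes the receptor Nur77, had most peaks of the group, with 5 in cKO and 6 in WT. At least 6 WT peaks were held by 3.06% of the 19215 genes with a WT peak, and 3 or more WT peaks, as held by Nr4a1, Nr4a3, Egr1 and Cd69, by 17.5%. Over the start of its shorter transcript Nr4a1-201 the peak at chr15:101266438-101268037 scored 63.2 in cKO, higher than 91.1% of that list, and the peak at chr15:101266356-101268032 scored 149 in WT, higher than 87.1%. The intergenic region at -6967 bp in cKO and -6921 bp in WT from the start of the longer transcript Nr4a1-202 stood about as high. It scored 62.4 in cKO (chr15:101246086-101247302, above 91.0% of the list) and 225 in WT (chr15:101245940-101247348, above 95.2%), and it was the strongest WT region of the gene.

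The start of Nr4a1-202 itself was weaker. Its promoter peak scored 6.84 in cKO (chr15:101252998-101254097, above 22.2% of the list) and 45.5 in WT (chr15:101253082-101254154, above 61.7%). It was the lowest of all 17 cKO peaks in its list. A region in the 5′ UTR of Nr4a1-202 scored 29.0 in cKO (chr15:101257957-101258970) and 131 in WT (chr15:101258026-101259024). Further upstream, a region at -13123 bp in cKO and -12972 bp in WT scored 15.2 in cKO and 61.0 in WT. It was the narrowest pair of the group, at 523 bp in cKO and 770 bp in WT. The unshared Nr4a1 peak lay in the 3′ UTR at chr15:101274071-101274670, with a WT score of 8.73, above 19.2% of the WT list.

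Nr4a2, encoding Nurr1, and Nr4a3, encoding Nor1, are the other receptors of the family. Nr4a2 had a broad peak over the start of Nr4a2-201 that scored 13.7 in cKO (chr2:57114411-57117617, above 43.8% of the list) and 77.3 in WT (chr2:57114271-57117591, above 73.2%). It was the only peak over a member start that scored below its list's median, in cKO. The other Nr4a2 peak was seen in WT alone, at chr2:57123256-57123829, 174 bp inside the start of the longer transcript Nr4a2-203, with a score of 19.2 and a width of 574 bp. It is the promoter peak that lacked a cKO partner.

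Nr4a3 had 3 peaks in cKO and 4 in WT. The strongest in both lists lay just upstream of the start, at -1379 bp in cKO (score 59.5, chr4:48042757-48043774) and -1378 bp in WT (score 122, chr4:48042672-48043775). It stood above 89.8% of the cKO list and 82.9% of the WT list. The peak over the start scored 28.5 in cKO (chr4:48044467-48046041) and 69.4 in WT (chr4:48044432-48046093). A region in intron 7 of 7 scored 19.6 in cKO (chr4:48074232-48075562) and 90.1 in WT (chr4:48074426-48075813). The order of these last regions differed: the start ranked above the intron in cKO and below it in WT. The unshared WT peak lay at -9752 bp (chr4:48034388-48035401), with a score of 22.5, the highest of the 6 unshared peaks and below the WT median.

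Egr1, an immediate early factor, shared all 3 of its peaks. Over the start of Egr1-202 the score was 69.3 in cKO (chr18:34859942-34861750, above 93.1% of the list) and 167 in WT (chr18:34859904-34862014, above 89.3%). The upstream region assigned to Egr1-201, at -3418 bp in cKO and -3317 bp in WT, scored 72.9 in cKO (chr18:34854366-34856405, above 94.1%) and 129 in WT (chr18:34854355-34856506, above 84.0%). The upstream region was thus the higher of this pair in cKO and the lower in WT. A distal region at 25641 bp in cKO and 25532 bp in WT downstream of the start scored 12.7 in cKO and 54.5 in WT. All 3 Egr1 regions were broad, at 2040, 1809 and 2259 bp in cKO and 2152, 2111 and 2533 bp in WT, in genomic order.

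Egr2 carried the strongest member peak in both lists, over its start. It scored 92.9 in cKO (chr10:67536328-67538601), rank 506 of 19680, and 313 in WT (chr10:67536110-67538610), rank 346 of 34440. The window printed above, with its CArG box, lies within it. The other Egr2 peak, at -13491 bp (chr10:67523312-67524378), was found in WT alone with a score of 12.4. Egr3, the close relative of Egr2, had 1 peak in each library, which spanned the start with a score of 21.1 in cKO (chr14:70074620-70078134, above 57.8%) and 65.7 in WT (chr14:70074553-70078364, above 69.9%). Nab2 also had 1 peak in each, with a score of 28.0 in cKO (chr10:127666603-127668914, above 67.1%) and 91.8 in WT (chr10:127666051-127668932, above 77.0%). The Nab2 centres lay 267.0 bp apart, the largest shift of the 17 pairs, with the WT peak reaching further into the gene and both ending at nearly the same place upstream.

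Cd69 had 2 peaks in cKO and 4 in WT. Its strongest region in both lists lay upstream, at -8053 bp in cKO (score 60.9, chr6:129283489-129285142, above 90.4% of the list) and -8068 bp in WT (score 253, chr6:129283504-129285347, above 96.8%). The promoter scored 42.0 in cKO (chr6:129273660-129276041, above 80.4%) and 129 in WT (chr6:129273477-129276113, above 84.1%). The unshared WT peaks lay in the 3′ UTR (chr6:129266041-129267595, score 6.48) and downstream of the gene (chr6:129260135-129260769, score 11.1). The first of these was 1555 bp wide, the widest of the unshared peaks, while its score was the lowest of all 23.

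**Figure D4:**
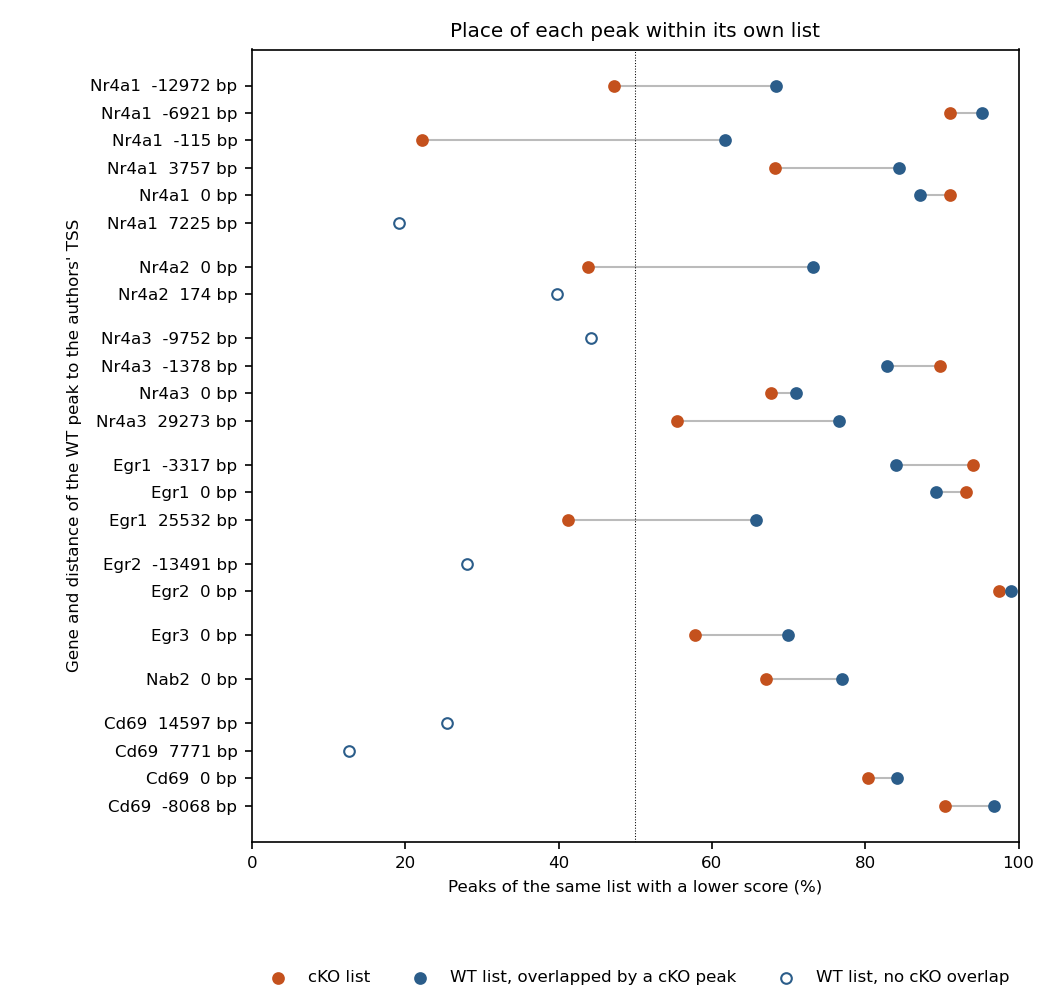
Place of each peak within its own list, as the percentage of peaks of that list with a lower score, for the cKO list (orange) and the WT list (blue), with the authors' TSS distance of the WT peak at the left. Open circles are WT peaks without a cKO overlap, and all 6 lie left of the dotted line at 50%. Of the 17 cKO points, 13 lie to its right.

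Across the group the place in the list ranged from above 22.2% to above 97.4% of the cKO list (median 68.2%) and from above 12.7% to above 99.0% of the WT list (median 73.2%). The upper 2 score bins held 8 cKO and 9 WT peaks. The intergenic regions nearest upstream of Nr4a1-202, Egr1 and Cd69 stood in score bins 9 or 10 in both lists. Those upstream of Egr2 and Nr4a3, at -13491 bp and -9752 bp, had no cKO peak and stood in WT bins 3 and 5.

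Peaks near the members but assigned to other genes were counted as well. Within 50 kb of the 8 start sites lay 19 such peaks in cKO and 27 in WT, and 19 of the 27 were shared (70.4%, 51.5 to 84.1), against the 56.1% of the WT list. Upstream of Egr3, 2 regions assigned to the predicted gene Gm33524 scored 27.7 and 32.1 in cKO and 94.5 and 86.4 in WT. Within Nab2 itself, a region assigned to Gm16229 (chr10:127661948-127662715 in cKO, chr10:127661604-127662857 in WT) scored 15.5 in cKO and 77.1 in WT. Downstream of Egr2 a region at chr10:67565585-67566776, assigned to 4930563J15Rik, had a WT score of 70.0 and no cKO peak. It lay in WT score bin 8, in which 94.7% of all peaks were shared, and it is the strongest of the 8 unshared WT peaks near the members, singled out after its values were seen.

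Other activation-induced genes were described from a list of 34. A WT peak was assigned to 31 of them and a cKO peak to 30. Of their 93 WT peaks, 64 were shared (68.8%, 58.8 to 77.3), above the 56.1% of all WT peaks. Their median WT score was 53.4, against 28.1 for the whole WT list, in which stronger peaks were shared more often. Whether score accounts for the higher share was not tested. Of the 67 cKO peaks, 1 lacked a WT partner. Dusp5, a MAP kinase phosphatase, had 5 cKO and 10 WT peaks, of which 6 were shared, and Tnfaip3, the NF-kappaB inhibitor A20, 5 cKO and 9 WT peaks, of which 5 were shared. Dusp4 shared 7 of 7 WT peaks, and Dusp2 and Socs3, a cytokine signal inhibitor, 3 of 5 each. The strongest unshared WT peaks lay at Dusp5 (score 34.3), Tnfaip3 (34.2), Tnfrsf4 (30.9), Klf6 (28.5) and Rel (28.2). Egr4, the remaining EGR gene and named after its values were seen, had 0 cKO peaks and 1 WT peak over its start, with a score of 20.6.

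Regulators that act upstream of these genes formed a list of 22, with WT peaks at 21 and cKO peaks at 19. Of their 80 WT peaks, 47 were shared (58.8%, 47.8 to 68.9), close to the WT list, and the median WT score was 27.3. Nfatc1, a calcium-regulated factor, had 9 cKO and 17 WT peaks, of which 10 were shared. Nfatc2 shared 4 of 10, the ETS factor Elk3 4 of 9, the deacetylase Hdac7 4 of 7 and Mef2d 3 of 5. The strongest unshared WT peak of this list scored 65.3 and lay at -57769 bp from Ppp3ca, a calcineurin subunit. Mapk3, which encodes ERK1, had 0 cKO and 2 WT peaks.

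Partners and targets of NR4A and EGR proteins in T cells numbered 21, with WT peaks at 19 and cKO peaks at 17. Of 86 WT peaks, 52 were shared (60.5%, 49.9 to 70.1), against 56.1% of all WT peaks, and the median WT score was 24.8. Nab1, the paralog of Nab2 and named after its values were seen, had 1 cKO and 3 WT peaks, of which 1 was shared. Tox, a factor induced by prolonged receptor signals, had 8 cKO and 19 WT peaks, of which 9 were shared, and the ubiquitin ligase gene Cblb shared 4 of 8. Dgkz, a diacylglycerol kinase that dampens receptor signals, shared 7 of 7, Ikzf2 6 of 7 and the retinoid receptor gene Rxra 3 of 6. Unshared WT peaks of this list were strongest at Tox (score 59.6), Tox2 (43.5), Pdcd1 (28.6), Zbtb16 (27.3) and Havcr2 (27.1).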

How the data were processed

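Peak lists of 2 ATAC-seq libraries, 1 per genotype, were used. The tools named in the submitters' processing notes are BWA, MACS2, FastQC and Trimmomatic, with the build mm10. Not given in the sources used here are their versions and settings, any Tn5 shift, duplicate removal and how genes were assigned. The authors called peaks per library and deposited for each its position (counted from 1), a score of unstated meaning, 1 gene, a class and a TSS distance. Read totals were not used here, so depth is unknown.

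Groups came from the sample titles. Peaks were taken by gene symbol, ranked by score within their list and put into 10 equal score bins. Overlap meant at least 1 bp, and differed from bedtools 2.31.1 at 0 of 54120 peaks. The code was also tested on simulated data. Shares carry Wilson 95% intervals (statsmodels 0.14.6), and the limit for a share of 0 is 3 counts. No p-value was computed. Python 3.11.15 was used.

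The 8 genes, the gene lists and the motifs were chosen with earlier results of these data known. Every member peak is reported, and 1 marker gene is not reported here. In other lists the rule named up to 5 genes with most WT peaks and up to 5 with the strongest unshared WT peak. RefSeq promoter windows were matched by symbol, with Egr1 left out of the selection and no window present for Egr3 and Cd69. For Egr2, which has several, the window whose start the authors' transcripts use was taken. The other genes with a printed window have 1 each.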

Additional observations from a re-analysis of the deposited data

How the results depend on the processing

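No paired analysis was possible because only 1 library per genotype exists here, and no replicate could be left out. Of the WT peaks of the 8 genes, 73.9% were shared. With equal numbers of peaks in both lists this share was 94.4%, from 17 of 18. For this the WT list was cut to its highest scoring peaks, and the share over all peaks of the cut list was not computed. Over the uncut WT list the shared percentage rose with score, from 6.68% in score bin 1 to 99.5% in bin 10. It was 88% for all WT peaks above the WT median score and 24.1% for those at or below it. A high share after a cut by score is therefore not particular to the 8 genes. The share of the 8 genes was 100% above the WT median score and 0% at or below it, a split added after the data were seen. It stayed inside its interval in the other 6 settings, at 58.3 to 76.5%, and all cKO peaks were shared (100%) in each of the 7 settings tried for them. Peak counts moved by construction to 7 cKO and 12 WT peaks without promoters, and to 36 cKO and 50 WT peaks within 50 kb of a start site whatever the gene. With both partners required to exceed their list's median, Nr4a1 shared 3 WT peaks and Nr4a2 0. Genes with a promoter peak stayed at 8, except for 7 in cKO above the median scores. Limiting the motif search to the bases before the gene start changed no count of members with a match. Depth is unknown, and its part in the missing peaks was not tested.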

Other observations

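Marker genes of other lineages, which the CD4+CD25+YFP+ gate should remove, were counted as a check. Of the B cell markers, Cd79b had 0 cKO and 4 WT peaks, Cd79a 1 cKO and 1 WT peak that overlapped, and Ms4a1 and Pax5 none in either. Myeloid and dendritic markers had 3 cKO and 3 WT peaks. Lyz2 had a cKO peak alone, Spi1 a WT peak alone with a score of 43.0, Adgre1 and Cd14 a shared peak each, and Csf1r and Itgam none. CD8 T and NK markers had 5 cKO and 6 WT peaks. Gzma had a peak over its start in cKO alone, Klrb1c 2 cKO and 4 WT peaks, Cd8b1 and Eomes a shared peak each, and Cd8a and Ncr1 none. Erythroid and stromal markers had 8 cKO and 10 WT peaks. Gata1 had a cKO peak alone, Pecam1 5 cKO and 7 WT peaks, Col1a1 1 cKO and 2 WT peaks, Klf1 a shared peak, and Hbb-bt and Pdgfrb none. No myeloid and dendritic or erythroid and stromal marker had a peak over its start in either library. Of the other markers, Cd8b1 had one in both libraries, Cd79b and Eomes in WT alone and Gzma in cKO alone. Over the whole lists 97.6% of cKO peaks and 56.1% of WT peaks were shared. The part of other lineages in the peaks of the 8 genes was not tested.

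Of 20 genes listed as neighbours of the members in mouse gene order, 12 had a cKO peak and 14 a WT peak, and 14 of their 22 WT peaks were shared (63.6%, 43.0 to 80.3), with the 56.1% of all WT peaks inside this interval. Stat6, which lies beside Nab2 and encodes the factor of IL-4 signalling, shared its only WT peak. The strongest unshared WT peak of this list, with a score of 38.8, lay over the start of Acvr1b, an activin receptor gene near Nr4a1. At the Reep2 promoter, next to Egr1, both libraries had a peak, which stood above 9.35% of the cKO list and above 50.5% of the WT list. Stat6 and Reep2 were named after their values were seen.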
